A study of Mus musculus with 20 samples.

Results

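The CTLH complex is a multi-subunit ubiquitin ligase, and its 10 genes Wdr26, Gid4, Rmnd5a, Maea, Ranbp9, Ranbp10, Mkln1, Armc8, Gid8 and Ypel5 were followed across hearts of mice fed 1 of 4 statins. They were taken as all probe sets of the array whose platform annotation gives one of these symbols alone, and are 10 of 18193 genes so named on the array. The genes had 37 such probe sets, of which 31 passed a filter on low signal and were tested. The complex was chosen by the group differences of Wdr26 and Gid4 in these same arrays, so the differences of those 2 genes are given as a description with no p-value. Where counts of probe sets past a threshold include them, nothing is read from the count.

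Left ventricles came from 20 male C57BL/6J mice, 1 Affymetrix mouse expression array per mouse, in 5 groups of 4. Aged 6 weeks on arrival, they had 2 weeks to settle in before 4 weeks on plain chow (control) or on chow carrying a statin. The statin doses were pitavastatin at 4.5 mg/kg/day, pravastatin at 21.0 mg/kg/day, rosuvastatin at 10.9 mg/kg/day and atorvastatin at 11.4 mg/kg/day. The doses differ, so the statins are set side by side and are not compared with each other, and all 4 comparisons share the same 4 control mice.

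The CTLH complex is the mammalian counterpart of the yeast GID ligase, which was named for its part in the glucose-induced breakdown of gluconeogenic enzymes. Rmnd5a and Maea carry the RING-type domains that form the catalytic core, Ranbp9 or Ranbp10 with Gid8 and Armc8 build the scaffold, and Gid4 is a substrate receptor that docks on Armc8. Wdr26 and Mkln1 are further subunits that join scaffold units into larger assemblies and help recruit substrates, Ypel5 binds Wdr26, and the complex is known for remodelling the proteome of maturing red blood cells.

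The promoters of Wdr26 and Gid4, the genes whose group differences chose the complex, are shown as RefSeq windows on GRCm38.p6. These run from 250 bases before to 50 bases after an annotated transcript start. Capitals mark CACGTG, an E-box bound by several basic helix-loop-helix factors. The Wdr26 window is chr1:181211929-181212228 on the minus strand and the Gid4 window is chr11:60416895-60417194 on the plus strand. Both are written 5′ to 3′ on the strand of the gene.
Wdr26: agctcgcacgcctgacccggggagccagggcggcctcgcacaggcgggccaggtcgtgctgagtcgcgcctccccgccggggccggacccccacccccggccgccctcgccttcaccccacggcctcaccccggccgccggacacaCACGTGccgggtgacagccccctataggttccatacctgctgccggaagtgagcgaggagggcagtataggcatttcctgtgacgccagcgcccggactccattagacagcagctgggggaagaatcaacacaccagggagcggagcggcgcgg
Gid4: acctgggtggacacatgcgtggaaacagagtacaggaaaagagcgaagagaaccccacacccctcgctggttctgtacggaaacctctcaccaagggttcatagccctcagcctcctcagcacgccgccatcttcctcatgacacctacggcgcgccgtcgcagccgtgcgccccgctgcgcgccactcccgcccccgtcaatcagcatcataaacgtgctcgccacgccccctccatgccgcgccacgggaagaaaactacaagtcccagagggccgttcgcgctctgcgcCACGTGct

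The E-box began 104 bases before the start in the Wdr26 window and 43 bases after it in the Gid4 window. RefSeq gave 11 windows for 8 of the genes, all but Maea and Ranbp10, and CACGTG stood in 3 of them, the third being a window of Ypel5, where it began 27 bases after the start. CACGTG reads the same on both strands, and it was present in 2349 of 32851 windows of the same length (7.15%). The cyclic AMP response element TGACGTCA, also the same on both strands, and the sterol regulatory element of the LDL receptor promoter, searched on both strands, were in 0 of the 11 windows, against 1.79% and 0.0913% of all windows. CACGTG and TGACGTCA share the letters ACGT, and a match is a description of the letters only.

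The deposited signals had been scaled by the authors to one trimmed mean, 500.0 on each array without the lowest and highest 2% of probe sets. The median signal still ranged from 41.7 in rosuvastatin mouse 3 to 144 in atorvastatin mouse 2, and the first principal component, with 56.6% of the variance, followed it (r = -0.996 over 20 arrays). The labelled tissue showed in all 10 of 10 cardiomyocyte markers, which passed the filter with mean signals from 16974 to 48373. The mean of 8 of these 10 was higher than control with pitavastatin and of 0 with pravastatin, rosuvastatin or atorvastatin, with summed signals from 298815 to 358316 in control, 266461 to 365540 with pravastatin and 204393 to 429941 with rosuvastatin. The groups overlapped in this list (exact permutation p for pravastatin and rosuvastatin, 0.343 and 0.457). The 18S ribosomal RNA control probe set was higher in all 4 pravastatin and all 4 rosuvastatin mice than in any control mouse, by 0.58 and 0.55 on the log2 scale (exact permutation test of 4 against 4, two-sided, p = 0.0286 each, the smallest possible, 0.4 after adjustment over 56 tests). The 4 lymphocyte markers on the array, of which only 1 passed the filter, were each lower on average in rosuvastatin mice. Their summed signals ran from 116 to 211 against 217 to 503 in control mice, with none at 0. Their mean log2 level was highest in atorvastatin mouse 2 (7.30), the array with the highest median signal. It was lowest in rosuvastatin mouse 2 (5.27), whose array median was 83.7, and rosuvastatin arrays had the lowest medians on average. A link of this list to the array median was not tested. The difference in mean log2 level with rosuvastatin again had the smallest exact p of 0.0286, and 0.4 adjusted. The mean log2 level of 5 skeletal muscle markers differed from control by -0.19 with pitavastatin at the same exact p and adjusted value, while their summed signals overlapped (2631 to 7323 against 3333 to 4348 in control). Of these 5 markers, 2 passed the filter. The part of these marker lists in the results was not tested. In whole ventricle, fewer cells of a type and less RNA per cell cannot be told apart.

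Wdr26, the WD40-repeat subunit, was higher in pravastatin and rosuvastatin hearts than in control hearts by 1 of its probe sets, and its other tested probe sets showed no such step. Values are log2 of the signal plus 16, so that differences of low signals are understated. Wdr26 1435478_at, with a mean signal of 3170, read 11.46, 11.50, 11.22 and 11.44 in the 4 control mice and 11.60, 11.44, 11.32 and 11.28 in the pitavastatin mice. It read 11.71, 12.01, 12.08 and 12.07 in the pravastatin mice, 11.86, 11.84, 11.75 and 11.79 in the rosuvastatin mice, and 11.60, 11.32, 11.54 and 11.44 in the atorvastatin mice. Every pravastatin and every rosuvastatin mouse lay above the highest control mouse, while the pitavastatin and atorvastatin mice overlapped the controls. Group means were 11.41 ± 0.12 (SD, n = 4) in control, 11.41 ± 0.15 under pitavastatin, 11.97 ± 0.17 under pravastatin, 11.81 ± 0.05 under rosuvastatin and 11.48 ± 0.12 under atorvastatin.

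In order of level at this probe set, pravastatin and rosuvastatin stood first, and their ranges overlapped each other. Atorvastatin, pitavastatin and control followed with ranges that also overlapped. Against control the log2 differences were 0.56 with pravastatin, 0.40 with rosuvastatin, 0.07 with atorvastatin and 0.00 with pitavastatin, each with a standard error of 0.09. On the linear scale of signal plus 16 these are 1.48-fold with pravastatin and 1.32-fold with rosuvastatin.

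**Figure D1:**
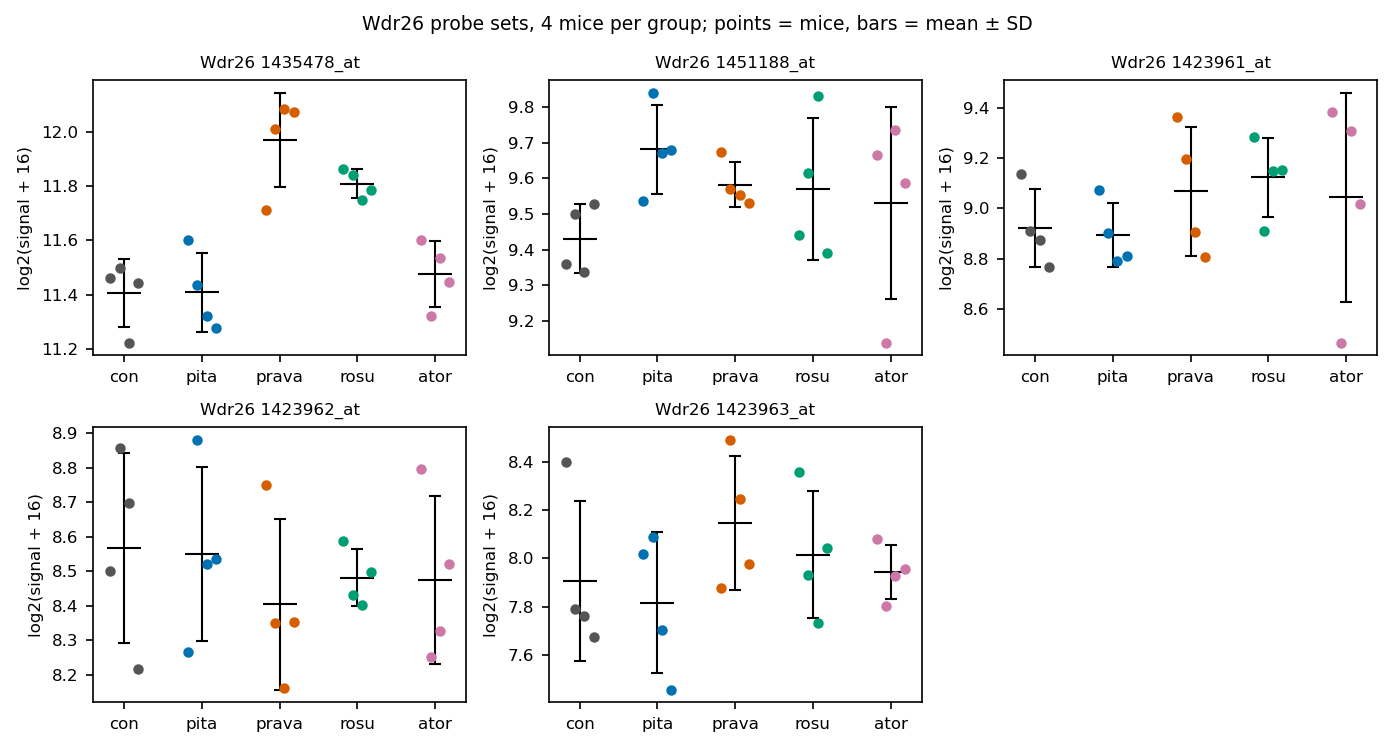
Log2 of signal plus 16 of each tested Wdr26 probe set (vertical axis) by diet group (horizontal axis); points are mice, bars the mean ± SD of 4. At 1435478_at the pravastatin mice (11.71 to 12.08) and rosuvastatin mice (11.75 to 11.86) lie above all control mice (11.22 to 11.50), which the other panels do not show for both statins.

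The other 4 tested Wdr26 probe sets carry 1 shared transcript record in the annotation, from which 1435478_at differs. Of these, 1451188_at read 9.36, 9.50, 9.34 and 9.53 in control, 9.54, 9.84, 9.67 and 9.68 with pitavastatin and 9.67, 9.57, 9.55 and 9.53 with pravastatin. Both statin groups sat above the controls here, the lowest pravastatin mouse by less than 0.01, and the differences were 0.25 and 0.15 with a standard error of 0.12. With rosuvastatin this probe set read 9.44, 9.62, 9.83 and 9.39 and with atorvastatin 9.66, 9.14, 9.73 and 9.59, both overlapping control, with differences of 0.14 and 0.10. So the group that stood apart with the other Wdr26 probe set, rosuvastatin, did not stand apart here, and the one that did not, pitavastatin, did.

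The remaining 3 tested Wdr26 probe sets overlapped control in every statin. For 1423961_at the differences were -0.03 under pitavastatin, 0.14 under pravastatin, 0.20 under rosuvastatin and 0.12 under atorvastatin, with a standard error of 0.17. For 1423962_at they were -0.02, -0.16, -0.09 and -0.09 in the same order (standard error 0.16), and for 1423963_at -0.09, 0.24, 0.11 and 0.04 (standard error 0.19). The sixth probe set, 1438234_at, had a mean signal of 46.3, below the filter at 81.8, and was not tested. Across the 20 mice the level at 1435478_at and that at 1451188_at had a Pearson correlation of 0.117, a description over arrays that share their groups.

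Gid4, the receptor that recognises substrates by their N-terminal residues, was higher in pravastatin and rosuvastatin hearts by 2 of its 6 tested probe sets. Gid4 1427067_at, with a mean signal of 364, read 8.36, 8.20, 8.07 and 7.89 in control and 8.40, 7.98, 8.21 and 8.54 with pitavastatin. It read 8.88, 8.74, 9.06 and 9.20 with pravastatin, 8.98, 8.85, 8.64 and 8.62 with rosuvastatin and 8.49, 8.30, 8.35 and 8.76 with atorvastatin. The pravastatin and rosuvastatin mice lay above every control mouse, and atorvastatin mice overlapped the upper end of the controls. Means were 8.13 ± 0.20 in control, 8.28 ± 0.24, 8.97 ± 0.20, 8.77 ± 0.17 and 8.47 ± 0.21 with pitavastatin, pravastatin, rosuvastatin and atorvastatin (SD, n = 4 each).

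The differences at this probe set were 0.15, 0.84, 0.64 and 0.34 in that order, with a standard error of 0.15, which is 1.79-fold with pravastatin and 1.56-fold with rosuvastatin. In order of level, pravastatin, rosuvastatin, atorvastatin, pitavastatin and control followed one another, and each overlapped its neighbour in that order. Gid4 1427068_x_at, whose suffix marks a probe set with some probes that can match other sequences, read 8.47, 8.07, 7.70 and 7.96 in control. It read 8.73, 8.65, 8.65 and 8.77 with pravastatin and 8.82, 8.55, 8.33 and 8.51 with rosuvastatin. All 4 pravastatin mice were above control and the rosuvastatin mice overlapped it, with differences of 0.65 and 0.50 and a standard error of 0.23. Pitavastatin and atorvastatin differed from control by 0.00 and 0.14 there.

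**Figure D2:**
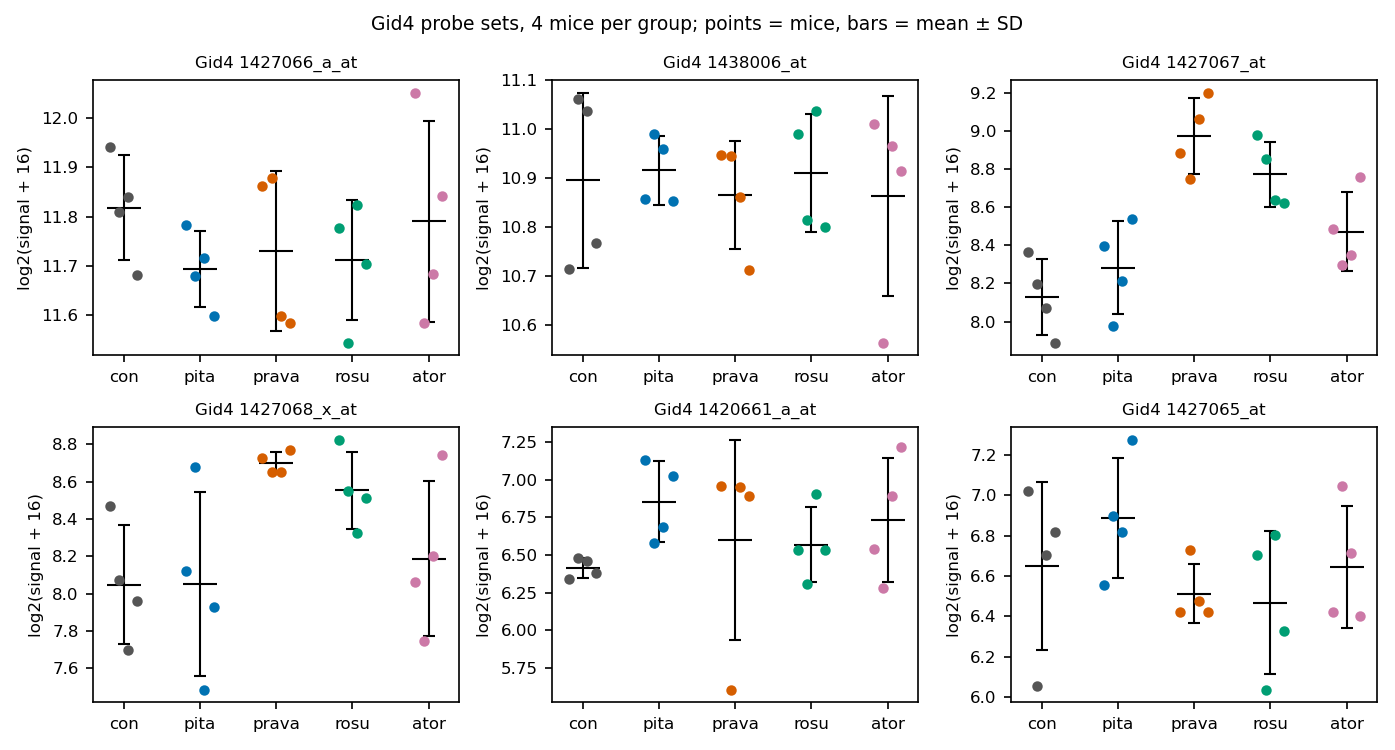
Log2 of signal plus 16 of each tested Gid4 probe set (vertical axis) by diet group (horizontal axis); points are mice, bars the mean ± SD of 4. Pravastatin mice lie above all control mice at 1427067_at and 1427068_x_at, and at 1427066_a_at and 1438006_at all statin groups overlap control.

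A further 2 Gid4 probe sets did not show this. Gid4 1427066_a_at, at a mean signal of 3441, read 11.94, 11.81, 11.84 and 11.68 in control, 11.86, 11.88, 11.60 and 11.58 with pravastatin and 11.78, 11.54, 11.82 and 11.70 with rosuvastatin. Its differences from control were -0.12 under pitavastatin, -0.09 under pravastatin, -0.11 under rosuvastatin and -0.03 under atorvastatin, with a standard error of 0.10. Gid4 1438006_at, at a mean signal of 1890, differed by 0.02, -0.03, 0.02 and -0.03 in the same order, also with a standard error of 0.10. All groups overlapped control at both.

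The annotation gives 1427066_a_at, 1427067_at, 1427068_x_at and 1427065_at 1 transcript record in common, so probe sets drawn from the same record differed in their pattern. The last of these, at a mean signal of 85.5 close above the filter, differed by 0.24, -0.14, -0.18 and -0.00 (standard error 0.24). Gid4 1420661_a_at, at 86.4, read 6.34, 6.48, 6.46 and 6.38 in control and 7.13, 6.58, 6.68 and 7.03 with pitavastatin, all above control, a difference of 0.44 with a standard error of 0.28. At that probe set pravastatin, rosuvastatin and atorvastatin overlapped control. Gid4 1438541_at and 1420662_at, at mean signals of 37.3 and 30.8, were below the filter.

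Across the 20 mice Wdr26 1435478_at and Gid4 1427067_at rose and fell together with a Pearson correlation of 0.803, and that of their deviations from the group means was 0.231. Most of the shared variation thus lay between groups, and the pravastatin and rosuvastatin mice took the upper end of both. With Gid4 1427068_x_at the correlation of this Wdr26 probe set was 0.725, or 0.366 for the deviations. The 2 Gid4 probe sets themselves correlated at 0.684 and, for the deviations, 0.298. By contrast Gid4 1427066_a_at and 1438006_at correlated at 0.482 with each other and 0.556 in their deviations, while 1427066_a_at and 1427067_at of the same gene stood at -0.129. These are descriptions over 20 arrays that share 5 diets and, within an array, its scaling.

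The 18S signal moved with both genes. It correlated at 0.736 with Wdr26 1435478_at and 0.660 with Gid4 1427067_at over the 20 mice, and at 0.258 and 0.097 in the deviations from group means. With the 18S signal as a covariate, an alternative chosen after seeing the data, the Wdr26 differences were 0.48 with pravastatin and 0.33 with rosuvastatin, and those of Gid4 1427067_at were 0.80 and 0.60. Its part in the result beyond that was not tested. The array median had correlations of -0.207 and -0.231 with the 2 probe sets. Erythroid markers, of interest because of the complex's role in red cells, had 5 of 10 listed genes on the array, and their summed signal ranged from 987 to 1631 in control, 1291 to 1630 with pravastatin and 1291 to 1813 with rosuvastatin. Only 2 of these 5 passed the filter. The sum is mostly 1 gene with a mean signal of 1094, against 10.2 to 200 for the others.

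**Figure D3:**
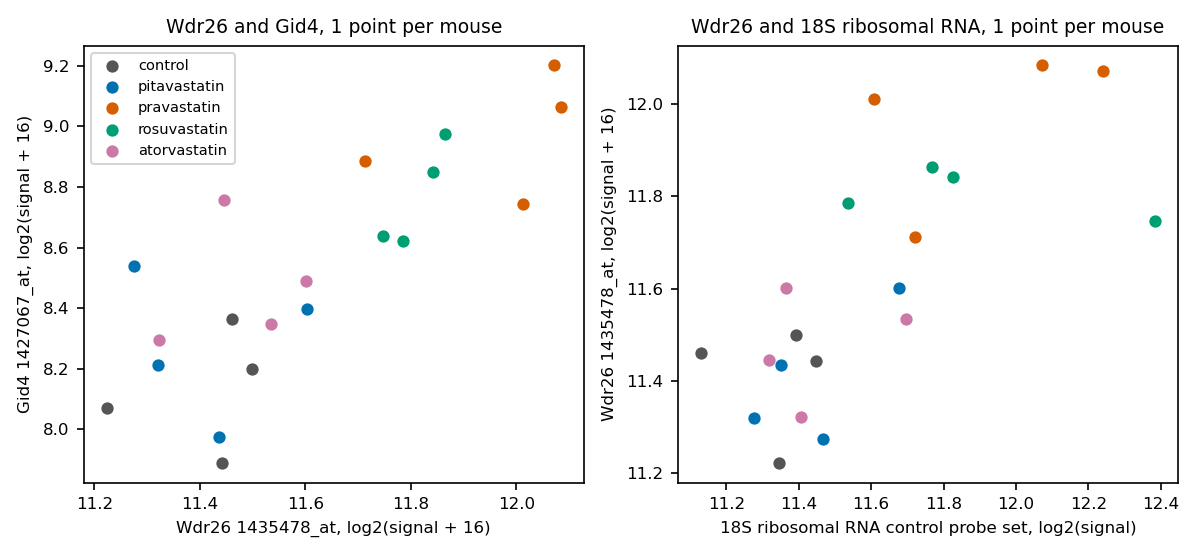
Left, Wdr26 1435478_at (horizontal axis) against Gid4 1427067_at (vertical axis), both log2 of signal plus 16; right, the 18S control probe set (horizontal axis, log2 signal) against Wdr26 1435478_at; each point is 1 of 20 mice, coloured by diet. Pravastatin and rosuvastatin mice take the upper right of the left plot (r = 0.803) and have 18S values of 11.54 or more, against 11.13 to 11.45 in control mice (r = 0.736).

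Among 11228 other genes, the patterns most like Wdr26 1435478_at over the 20 mice were Tvp23b (r = 0.845), Ranbp6 (0.832), Kif1b (0.804), Gid4 (0.803) and Pum2 (0.798). For Gid4 1427067_at they were Abce1 (0.871), Pum2 (0.858), Tvp23b (0.839), Med1 (0.827) and Wdr26 (0.803). Pum2 and Tvp23b were on both lists, and each of the genes was in the other's list. Since both were chosen for differences between the same groups, their place in each other's list is not independent of that choice. Of all tested probe sets with 1 symbol, 1% reached 0.642 or more with Wdr26 and 0.631 or more with Gid4. Each gene was taken by the probe set with the highest correlation, so these are the upper ends of what its probe sets showed. For Med1, a subunit of the Mediator complex that carries signals from transcription factors to RNA polymerase, 1421907_at had means of 9.70 in control and 9.63, 10.49, 10.50 and 10.18 with pitavastatin, pravastatin, rosuvastatin and atorvastatin.

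The other 8 genes of the complex had 20 tested probe sets, and none passed an adjusted p of 0.05 (limma, Benjamini-Hochberg over 22518 probe sets) in any statin. Their smallest adjusted p was 1.00, 0.992, 0.452 and 0.964 under pitavastatin, pravastatin, rosuvastatin and atorvastatin. Over the 5 groups the limma F test gave a smallest adjusted p of 0.591.

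The catalytic core stayed within 0.2 of control on the log2 scale at the brightest probe sets. Rmnd5a 1426884_at, for the RING subunit that engages the ubiquitin-carrying E2 enzyme, read 10.76, 10.64, 10.43 and 10.31 in control, 10.45, 10.62, 10.57 and 10.38 with pitavastatin and 10.76, 10.79, 10.70 and 10.56 with pravastatin. It read 10.81, 10.48, 10.76 and 10.77 with rosuvastatin and 10.92, 10.65, 10.68 and 10.59 with atorvastatin. All statin groups overlapped control, which held the lowest of the 20 values. The differences were -0.03 with pitavastatin and 0.17 with each of pravastatin, rosuvastatin and atorvastatin (95% interval -0.05 to 0.39), with limma adjusted p of 1, 0.992, 0.53 and 0.964. Its second probe set, 1431068_at, differed by -0.02, 0.07, -0.07 and 0.14 (standard error 0.11).

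Maea, the RING partner of Rmnd5a, was tested by 1423031_at, which read 10.05, 10.53, 10.49 and 10.38 in control. With pitavastatin it read 10.32, 10.66, 10.60 and 10.50 and with pravastatin 10.43, 10.10, 10.44 and 10.30. With rosuvastatin it read 10.34, 10.40, 10.72 and 10.35 and with atorvastatin 10.39, 10.18, 10.31 and 10.33. Control mouse 1 was the lowest of all 20 and every group overlapped control. The differences were 0.16, -0.04, 0.09 and -0.06 (standard error 0.11), and 1438903_at of Maea, at a mean signal of 23.5, was below the filter.

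In the scaffold, Gid8, whose LisH and CTLH domains connect the core to the other subunits, was the gene whose brightest probe set came apart from control. Gid8 1455254_at read 11.11, 11.01, 11.12 and 11.01 in control, 11.15, 11.13, 11.51 and 11.35 with pravastatin and 11.24, 11.15, 11.22 and 11.21 with rosuvastatin. Both groups lay above control without overlap, pravastatin mouse 2 only by 0.01. The differences were 0.22 with pravastatin (95% interval 0.03 to 0.42, limma adjusted p = 0.992) and 0.14 with rosuvastatin (adjusted p = 0.559), neither past the threshold. With pitavastatin it read 10.92, 11.00, 11.15 and 11.01 and with atorvastatin 11.30, 10.97, 11.42 and 11.22, and both overlapped control, with differences of -0.04 and 0.16. The other Gid8 probe sets did not share the pattern, since 1428824_at differed by 0.01 with pravastatin and 0.03 with rosuvastatin and 1455255_at by 0.05 and -0.17 (standard error 0.16 each). Across the 20 mice Gid8 1455254_at correlated at 0.575 with Wdr26 1435478_at and at 0.291 in the deviations.

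Ranbp9, the SPRY-domain scaffold protein, read at 1456199_x_at 11.00, 10.56, 10.40 and 10.64 in control, 10.70, 10.45, 10.37 and 10.39 with pitavastatin and 11.05, 10.77, 10.81 and 10.72 with pravastatin. It read 10.77, 10.87, 10.97 and 10.77 with rosuvastatin and 11.15, 10.70, 10.78 and 11.24 with atorvastatin. Control mouse 1 was the highest of its group, and every statin group overlapped control. The other 3 control mice lay below all pravastatin, rosuvastatin and atorvastatin mice. The difference with atorvastatin was 0.32 (95% interval 0.04 to 0.59, limma adjusted p = 0.964), and with pitavastatin, pravastatin and rosuvastatin it was -0.17, 0.19 and 0.20 (standard error 0.13). Ranbp9 1422736_at differed by at most 0.19, with pravastatin (standard error 0.18). Ranbp10, the paralogue that can take its place, had differences of 0.08, -0.13, 0.02 and 0.03 at 1424584_a_at, whose 20 values lay between 9.04 and 9.54, and of 0.14, 0.11, 0.18 and 0.01 at 1424585_at (standard errors 0.09 and 0.17).

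Armc8, the armadillo-repeat subunit on which Gid4 docks, read at 1429535_at 9.47, 9.59, 9.39 and 9.70 in control, 9.95, 9.61, 9.84 and 9.70 with pitavastatin and 9.72, 9.78, 10.10 and 9.44 with pravastatin. It read 10.14, 10.07, 9.97 and 9.47 with rosuvastatin and 9.87, 9.34, 9.67 and 9.56 with atorvastatin. In each of pitavastatin, pravastatin and rosuvastatin, 3 mice were above all controls and 1 was within them, pitavastatin mouse 4 being only just above. The difference with rosuvastatin was 0.38 (95% interval 0.06 to 0.70, limma adjusted p = 0.452). The differences with pitavastatin, pravastatin and atorvastatin were 0.24, 0.23 and 0.07 (standard error 0.15). Armc8 1455113_at differed by 0.08, 0.14, 0.07 and 0.16 across the 4 statins (standard error 0.12).

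Mkln1, the kelch-repeat protein muskelin, read at 1416733_at 11.14, 10.91, 11.04 and 10.93 in control, 10.97, 10.71, 11.01 and 10.70 with pitavastatin and 11.24, 10.90, 11.05 and 11.11 with pravastatin. It read 11.02, 10.87, 10.98 and 10.92 with rosuvastatin and 10.87, 10.89, 11.01 and 10.82 with atorvastatin. All groups overlapped control, and the differences were -0.16 (95% interval -0.34 to 0.03), 0.07, -0.06 and -0.11. Mkln1 1436096_at differed by 0.17, -0.08, -0.08 and -0.07 (standard error 0.17), and 1416734_at and 1446203_at, at mean signals of 77.5 and 27.0, were below the filter. Ypel5, the small zinc-binding protein that attaches to Wdr26, read at 1451196_at from 13.09 to 13.44 over all 20 mice, with a control mean of 13.24 ± 0.09 and differences of -0.01, 0.08, 0.04 and 0.06. Their 95% intervals ran from -0.19 to 0.17, -0.10 to 0.26, -0.14 to 0.22 and -0.12 to 0.24. Ypel5 1433593_at differed by 0.07, 0.15, 0.05 and -0.04 (standard error 0.15).

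**Figure D4:**
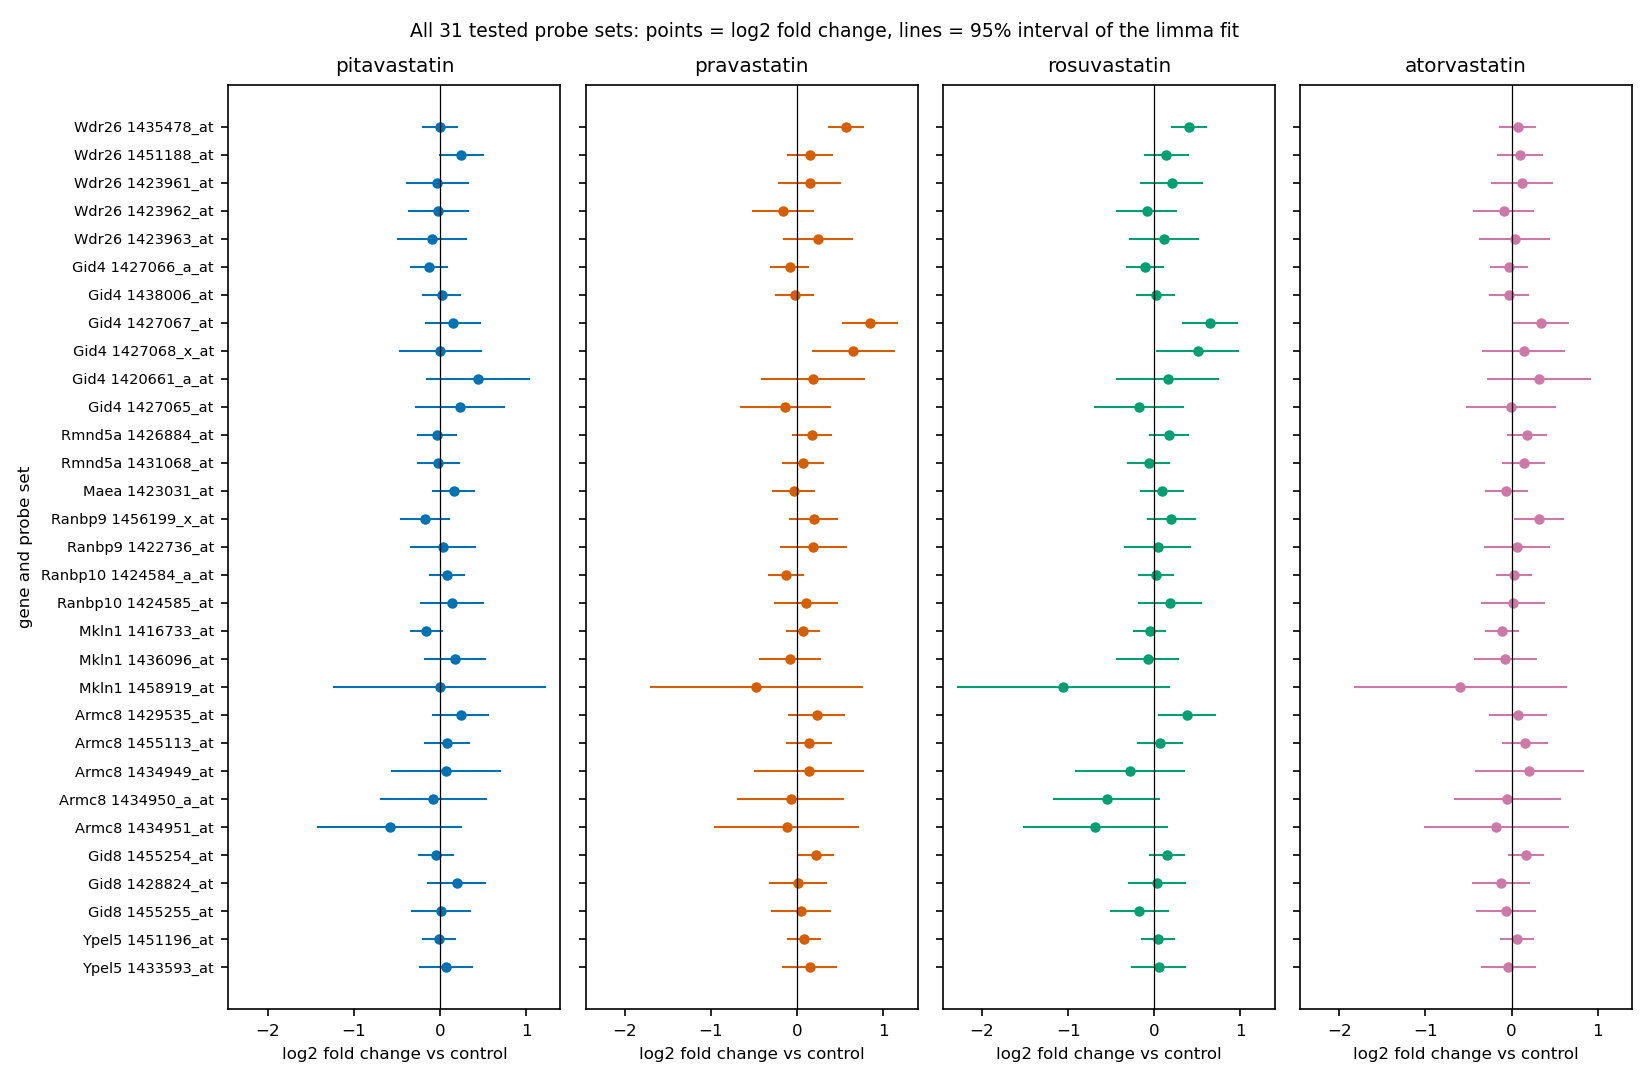
Log2 difference from control (horizontal axis) with 95% interval for each of the 31 tested probe sets of the 10 genes (vertical axis), in 1 panel per statin. Wdr26 1435478_at (0.56 and 0.40) and Gid4 1427067_at (0.84 and 0.64) stand to the right with pravastatin and rosuvastatin, most other intervals include 0, and the widest belong to Mkln1 1458919_at and dim Armc8 probe sets.

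Dim probe sets of Armc8 and Mkln1 followed the overall level of the array. Armc8 1434951_at ran from 5.77 in rosuvastatin mouse 3 to 8.55 in atorvastatin mouse 2, the arrays with the lowest and highest median signal, and Mkln1 1458919_at from 4.22 to 8.13 in the same 2 mice. Their correlations with the log2 array median were 0.876 and 0.882 over the 20 arrays and 0.936 and 0.873 in the deviations from group means. Armc8 1434950_a_at and 1434949_at stood at 0.889 and 0.852. The differences of these probe sets with rosuvastatin, whose array medians were the lowest on average, were -0.68 for 1434951_at (standard error 0.40), -0.55 for 1434950_a_at (0.29), -0.28 for 1434949_at (0.30) and -1.06 for Mkln1 1458919_at (0.59). Without rosuvastatin mouse 3 they were -0.40 for 1434951_at and -0.37 for Mkln1 1458919_at, and without control mouse 4 the value of 1434949_at was -0.11 and without control mouse 2 it was -0.45. With pitavastatin, whose log2 array median differed from control by -0.04 on average, Armc8 1434951_at also differed by -0.58 (standard error 0.40). It ran there from 6.57 to 6.91, against 6.90 to 7.85 in control. The pitavastatin differences of 1434950_a_at, 1434949_at and Mkln1 1458919_at were -0.07, 0.07 and -0.00.

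Other probe sets ran the opposite way. Gid4 1438006_at correlated at -0.746 with the array median, Wdr26 1423961_at at -0.689, Wdr26 1451188_at at -0.576 and Gid4 1427066_a_at at -0.503. Armc8 1429535_at stood at -0.469, so probe sets of 1 gene moved in opposite directions with the array. With the array median as a covariate, the rosuvastatin difference went from 0.14 to -0.01 at Wdr26 1451188_at and from 0.20 to -0.01 at Wdr26 1423961_at. It went from 0.02 to -0.14 at Gid4 1438006_at and from -0.11 to -0.23 at Gid4 1427066_a_at. The dim Armc8 and Mkln1 probe sets were not among those recomputed with it. The part of the array median in these differences was not tested beyond its use as a covariate.

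**Figure D5:**
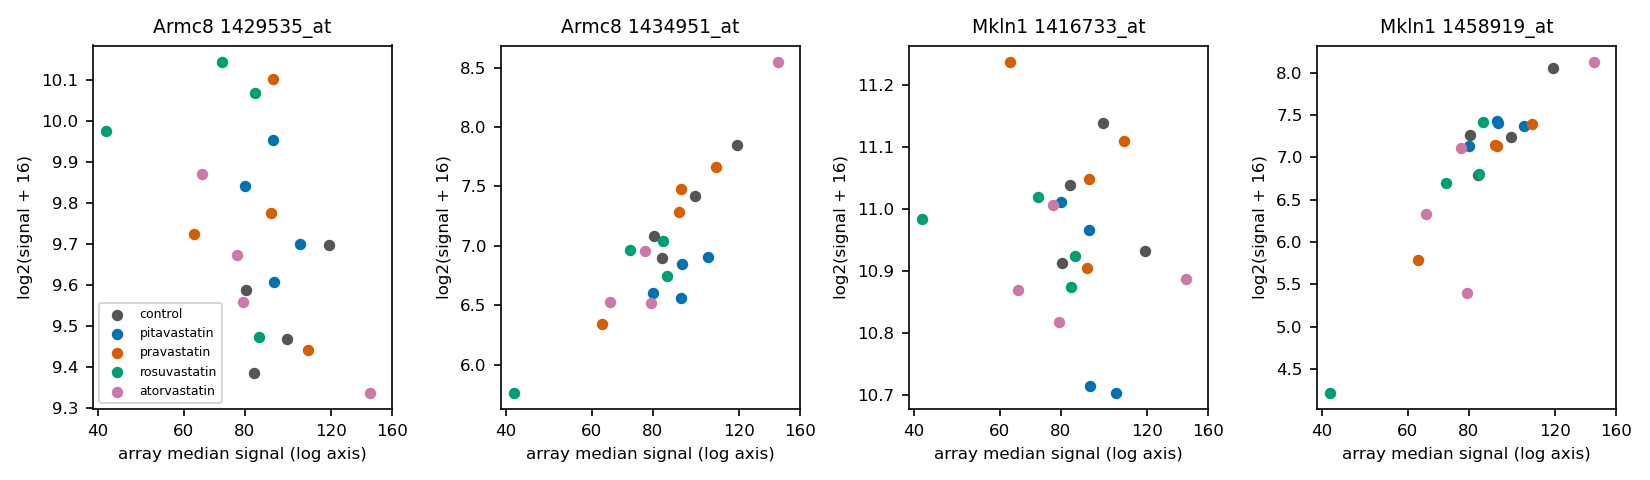
Log2 of signal plus 16 (vertical axis) of 2 Armc8 and 2 Mkln1 probe sets against the median signal of the array (horizontal axis, log scale); each point is 1 of 20 mice, coloured by diet. The dim probe sets Armc8 1434951_at and Mkln1 1458919_at climb with the array median (r = 0.876 and 0.882), which Armc8 1429535_at (r = -0.469) and Mkln1 1416733_at (r = -0.212) do not.

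Over the whole complex, 0 of the 31 tested probe sets passed an adjusted p of 0.05 (limma, Benjamini-Hochberg) in any statin, in the mean of the statins or in the F test, where the background was 0% of all those tested on the array for each contrast and 0.00444% for the F test. At an unadjusted limma p under 0.05, 0 were higher with pitavastatin (1.03% of all tested), 4 with pravastatin (2.88%), 4 with rosuvastatin (4.01%), 2 with atorvastatin (2.91%) and 2 in the mean of the statins (2.14%), and 5 passed in the F test (6.24%). None was lower, against 0.906% of all tested under pitavastatin, 1.06% under pravastatin, 6.96% under rosuvastatin, 1.65% under atorvastatin and 0.906% in the mean of the statins. With pravastatin these were Wdr26 1435478_at, Gid4 1427067_at and 1427068_x_at and Gid8 1455254_at. With rosuvastatin Armc8 1429535_at took the place of Gid8. Wdr26 and Gid4 were chosen for these contrasts, so nothing is read from the counts. Leaving out 1 mouse changed the count past the adjusted threshold with pravastatin from 0 to 2 without control mouse 1 and to 1 without pravastatin mouse 1 or without atorvastatin mouse 2, and these were Wdr26 1435478_at and Gid4 1427067_at.

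Probe sets whose 4 statin mice all lay above the 4 control mice numbered 2 under pitavastatin (0.924% of all tested), 5 under pravastatin (1.92%), 3 under rosuvastatin (1.87%) and 0 under atorvastatin (0.799%). With pitavastatin they were 1 each of Wdr26 and Gid4, with pravastatin 2 of Wdr26, 2 of Gid4 and 1 of Gid8, and with rosuvastatin 1 of each of these genes. All lay below the controls in 0, against 0.764%, 1.03%, 2.66% and 0.573% of all tested. The median log2 difference of the 31 was 0.01 under pitavastatin, 0.11 under pravastatin and 0.04 under both rosuvastatin and atorvastatin, beside -0.003, -0.02, -0.02 and -0.03 over all tested probe sets. The number above 0 was 18, 21, 20 and 18 of 31, where 49.0%, 45.0%, 45.9% and 43.9% of all tested were above 0, and 20 of 31 in the mean of the statins, where 44.8% were. With each array centred on its median, which moved the median difference of all tested probe sets with rosuvastatin to 0.36, 28 of 31 were above 0 with rosuvastatin and 20 of 31 were above that shift.

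Genes around the complex were taken from a list of 19 in 3 groups, with 32 tested probe sets, of which 0 passed an adjusted p of 0.05 (limma) in any comparison. At an unadjusted p under 0.05, 2 of the 32 were higher and 1 lower with pravastatin (2.88% and 1.06% of all tested), 2 and 0 with rosuvastatin (4.01% and 6.96%), 2 and 1 with atorvastatin (2.91% and 1.65%) and 0 and 0 with pitavastatin (1.03% and 0.906%). Their median differences were -0.01 under pitavastatin, -0.05 under pravastatin, -0.05 under rosuvastatin and -0.04 under atorvastatin. The groups were the E2 enzyme and paralogues (Ube2h, Rmnd5b, Ypel1, Ypel2, Ypel3 and Ypel4), proteins reported to be bound or turned over by the complex (Hbp1, Zmynd19, Hmgcs1, Nmnat1, Prkaa1 and Prkaa2) and gluconeogenic enzymes (Fbp1, Fbp2, Pck1, Pck2, Mdh1, Mdh2 and Pcx). The last is the class of the classical substrates in yeast, though not every gene listed is the counterpart of one.

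The highest difference with pravastatin, rosuvastatin and atorvastatin belonged to Prkaa2, the catalytic alpha-2 subunit of the energy sensor AMPK. Prkaa2 1429463_at read 8.79, 8.01, 8.01 and 7.87 in control, 8.82, 8.64, 9.02 and 8.91 with pravastatin, 8.97, 8.97, 8.90 and 8.96 with rosuvastatin and 8.71, 8.33, 8.86 and 8.97 with atorvastatin. Control mouse 1 stood far above the other controls, and at this probe set only the rosuvastatin mice were all above it. The differences were 0.68, 0.78 and 0.54 (standard error 0.17, limma adjusted p = 0.548, 0.345 and 0.92), and 0.18 with pitavastatin, where the highest difference was that of Mdh1 1448172_at (0.28, standard error 0.22). Prkaa2 1429464_at had differences of 0.49, 0.34 and 0.42 (standard error 0.12), and 1434766_at of 0.06, -0.03 and -0.05 (standard error 0.07), so probe sets of this gene differed as those of Wdr26 and Gid4 did. At 1429464_at all pravastatin, rosuvastatin and atorvastatin mice (lowest 9.51, 9.52 and 9.53) lay above the highest control mouse (9.48), and the pitavastatin mice overlapped control. At 1434766_at, the brightest Prkaa2 probe set, all pitavastatin mice (12.72 to 12.84) lay below the control mice (12.86 to 12.95).

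The lowest difference in each statin belonged to a dim probe set of Ube2h, the E2 enzyme that works with the complex. This probe set, 1418632_at, had group means from 6.25 with atorvastatin to 7.23 in control, below those of the other tested Ube2h probe sets. Ube2h 1418632_at read 7.13, 6.91, 7.28 and 7.59 in control, 6.24, 6.79, 6.83 and 5.99 with pravastatin, 6.75, 6.91, 6.52 and 6.91 with rosuvastatin and 6.97, 4.87, 6.23 and 6.93 with atorvastatin. All 4 pravastatin and all 4 rosuvastatin mice lay below control, the highest rosuvastatin mouse by less than 0.01, and atorvastatin mouse 2 was the lowest of all. Its differences were -0.31 under pitavastatin, -0.77 under pravastatin, -0.46 under rosuvastatin and -0.98 under atorvastatin (standard error 0.35, limma adjusted p = 1, 0.992, 0.632 and 0.964). Without atorvastatin mouse 2 the atorvastatin difference was -0.52, and without control mouse 4 the pitavastatin difference was -0.19. Ube2h 1418631_at had differences of -0.03, 0.16, 0.04 and 0.16 (standard error 0.11). Group means at Ube2h 1438971_x_at were 10.09 in control and 9.96, 9.97, 10.09 and 10.15 with the statins in the same order. At Ube2h 1428791_at they were 9.45 in control and 9.35, 9.26, 9.40 and 9.41. Every statin group overlapped control at both. Hmgcs1, the cholesterol-pathway synthase that the complex is reported to turn over, differed by -0.01, 0.04, 0.09 and 0.05 at 1433443_a_at (standard error 0.11). At Hmgcs1 1433445_x_at the pravastatin mice (12.04 to 12.09) lay above control (11.89 to 12.01), and the other statin groups overlapped control. Every statin group overlapped control at 1433444_at and 1433446_at of this gene.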

How the data were processed

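The authors deposited 1 linear signal intensity per probe set and array; the submitters' processing notes name MAS5, with no version. Labels give each mouse's diet; RNA was amplified from 100 ng. After leaving out 64 control probe sets of 45101, 16 was added to each signal, log2 was taken, and the brighter 50% by mean over the 20 arrays were kept (22518 probe sets, signal of 81.8 or more). Probe sets were named from the platform annotation. The microarray's number of arrays, 4 per group, limits precision.

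Groups were compared with limma 3.58.1 in R 4.3.3, in 1 model of all 20 arrays with a trended prior (15 residual and 4.23 prior degrees of freedom) and Benjamini-Hochberg adjustment over all tested probe sets, with a threshold of 0.05. The fit was tested on simulated data. Single values per mouse were compared by exact permutation of 4 against 4. Genes named with their values are members, the 5 genes most like Wdr26 and Gid4 over 20 arrays, and the related genes with the highest and lowest difference. Hmgcs1, from the cholesterol pathway, is given in addition. Members and lists were chosen with earlier results of these data known. Alternatives were quantile normalization, median centring, pseudocounts of 1 and 64, no filter, the brightest 30%, no trend, array weights, a replicate block, the array median as covariate, only the compared groups, and leaving out arrays. The 18S covariate was added after the data were seen.

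Mice with the same replicate number deviated together in pitavastatin and control (correlations 0.18, 0.13, 0.32 and 0.44), which pairs them by the rule set for this check, although nothing in the labels does. In each other statin at least 1 correlation was below 0.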

Additional observations from a re-analysis of the deposited data

Results flagged for a closer look

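Of 155 groups of 4 mice checked at the tested probe sets of the complex, 8 held 1 mouse far from the other 3, and chance alone would give about 5% of groups. Gid4 1420661_a_at was 5.60 in pravastatin mouse 2, against 6.89 to 6.96 in the other mice of its group. Wdr26 1423963_at was 8.40 in control mouse 1, against 7.67 to 7.79. In the catalytic core, Rmnd5a 1426884_at was 10.48 in rosuvastatin mouse 2 (others 10.76 to 10.81), Rmnd5a 1431068_at was 9.81 in pravastatin mouse 4 (others 9.89 to 9.90) and Maea 1423031_at was 10.72 in rosuvastatin mouse 3 (others 10.34 to 10.40). In the scaffold, Ranbp10 1424585_at was 8.81 in control mouse 2 (others 8.06 to 8.17) and Armc8 1434950_a_at was 8.59 in atorvastatin mouse 2 (others 7.14 to 7.29). Mkln1 1458919_at was 5.78 in pravastatin mouse 1 (others 7.13 to 7.40). None of the 8 was at Wdr26 1435478_at, Gid4 1427067_at or Gid8 1455254_at. Those 3 probe sets are named because their pravastatin and rosuvastatin mice all lay above control, so nothing is read from this absence.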

How the results depend on the processing

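The 95 log2 differences of 19 probe sets (all tested ones of Wdr26 and Gid4 and the brightest of each other gene) were recomputed under the alternatives, giving 3101 values. Of these, 3070 lay within 1 SD between mice of the main value and 31 did not. Many could not move, so this count does not measure how stable the differences are. The filters, the trend, the replicate block and the use of only the compared groups leave a difference as it is. So does leaving out a mouse of a group outside the comparison. The sign changed in 147 of them, for 44 of the 95 differences, which were at most 0.27 in size. Examples are Gid4 1420661_a_at with the 18S covariate (pravastatin 0.19 to -0.29, rosuvastatin 0.15 to -0.30) and Wdr26 1423962_at with median centring (rosuvastatin -0.09 to 0.30). The count of called probe sets of the complex with pravastatin, 0 in the main fit, was 2 with the brightest 30%, 2 with array weights and 2 with the array median as covariate, and 0 to 2 on leaving out 1 mouse (2 without control mouse 1, 1 without pravastatin mouse 1, 1 without atorvastatin mouse 2). In the F test it was 1 with the brightest 30%, 2 with array weights, and 0 to 2 on leaving out 1 mouse (2 without control mouse 1, 1 without pravastatin mouse 1). These probe sets were Wdr26 1435478_at and Gid4 1427067_at, whose group differences chose the complex, so nothing is read from these calls. Of the related genes, Prkaa2 1429463_at was called (1 instead of 0) with array weights with pravastatin, rosuvastatin and in the F test, and without control mouse 1 in these, with atorvastatin and in the mean of the statins, so that these counts ran from 0 to 1 on leaving out 1 mouse. The cause was not tested. With the replicate block, 0 probe sets of the complex and 0 of the related genes were called with pitavastatin, and no other call changed.

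Leaving out 1 mouse kept the Wdr26 1435478_at difference between 0.50 and 0.65 with pravastatin and between 0.34 and 0.43 with rosuvastatin, and that of Gid4 1427067_at between 0.76 and 0.92 and between 0.56 and 0.72. Median centring raised the rosuvastatin values to 0.79 and 1.02, which are 0.42 and 0.66 above the shift of all tested probe sets. With 4 mice per group the median 95% interval over all tested probe sets of the array reached 0.36 to either side, which limits what could be detected at a typical probe set.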
